A study of Mus musculus with 6 samples.

Results

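The genes described here are *Lox*, *Loxl1*, *Loxl2*, *Plod1*, *Plod2*, *P4ha1*, *P4ha2*, *P4ha3*, *Serpinh1* and *Pcolce*, which encode enzymes and helper proteins that modify, fold, trim and crosslink collagen. They were chosen by symbol, and all 10 were found among the 20327 gene symbols with tag counts. Of these 10 genes, 9 passed the filter on low genes, which asked for 10 or more tags in 3 or more libraries, and were tested. *P4ha3* was under this filter.

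Collagen chains are modified in the endoplasmic reticulum before they leave the cell. Prolyl 4-hydroxylases stabilize the triple helix, lysyl hydroxylases prepare lysines for crosslinks and glycosylation, and the chaperone HSP47 binds the folded procollagen. Outside the cell, proteinases remove the propeptides, and copper-dependent lysyl oxidases then oxidize lysines so that fibrils become covalently crosslinked. In the gut these steps are carried out largely by fibroblasts and other mesenchymal cells, and they are known for their part in wound repair and fibrosis.

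The libraries came from C57BL/6 mice with the *Il11-Egfp* genotype, a reporter built on a bacterial artificial chromosome in which *Egfp* and a polyA signal sit in exon 2 of *Il11*, kept as a single transgenic line. Mice aged 9 to 15 weeks drank 1.5% dextran sulfate sodium (DSS), which injures the colonic epithelium, for 5 days and then regular water, and colons were taken on day 7. Colon cells negative for Ter119, CD45, CD31 and EpCAM were sorted into EGFP-Positive cells (IL-11+) and EGFP-Negative cells (IL-11-), with 3 libraries in each group. Both groups thus share the transgene and the DSS treatment and differ in the EGFP gate, and no untreated mice were included. RNA was measured by 5′Tag-seq, in which tags come from fragments near the 5′ end of polyA RNA. The libraries held between 1022851 and 1169817 tags. Levels are given as raw tags or as CPM, which are tag counts brought to a common library total, here with the scaling factors of the TMM method. The comparison asks how IL-11+ cells differ from the other stromal cells of the same inflamed tissue.

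*Il11* itself checks the sort. It had 28, 51 and 89 tags in EGFP-Negative libraries 1, 2 and 3 and 1357, 732 and 2658 tags in EGFP-Positive libraries 1, 2 and 3, a log2 fold change of 4.98 ± 0.393 (SE; edgeR adjusted p = 1.01e-07). *Il11* tags were thus present at a low level in each EGFP-Negative library. By the paper's account the sorted EGFP-Positive cells were not fully pure, and the part of this in the differences was not tested. Since the transgene carries the *Il11* sequence ahead of *Egfp*, tags of the gene and of the transgene cannot be told apart.

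Across the 9334 tested genes, 321 were called higher in EGFP-Positive cells and 595 were called lower, where called means that the gene passed both an adjusted p of 0.05 in edgeR's quasi-likelihood test and a 2-fold difference. These are 3.44% and 6.37% of the tested genes. Among the 9 tested crosslinking and processing genes, *Lox* and *Loxl2* were called higher. By the adjusted p alone, the shares of all tested genes were 6.84% higher and 8.7% lower, and the higher genes included 4 of the 9, namely *Lox*, *Loxl2*, *P4ha2* and *Serpinh1*. With glmTreat, which tests against a 1.5-fold difference, *Loxl2* alone of the 9 had an adjusted p under 0.05. Of all 9334 tested genes, 214 were higher and 378 were lower by glmTreat. The ranges over 14 alternatives given below do not include that test. None of the 9 was called lower, with 0 at an unadjusted p under 0.05 in either edgeR or DESeq2. The EGFP-Positive libraries lay above the EGFP-Negative libraries without overlap for 14.5% of all tested genes and below them for 16.7%; of the 9 genes, *Loxl2* and *P4ha2* lay above and 0 lay below. The median log2 fold change of the 9 genes was 0.41, and that of all tested genes was −0.01.

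**Figure D1:**
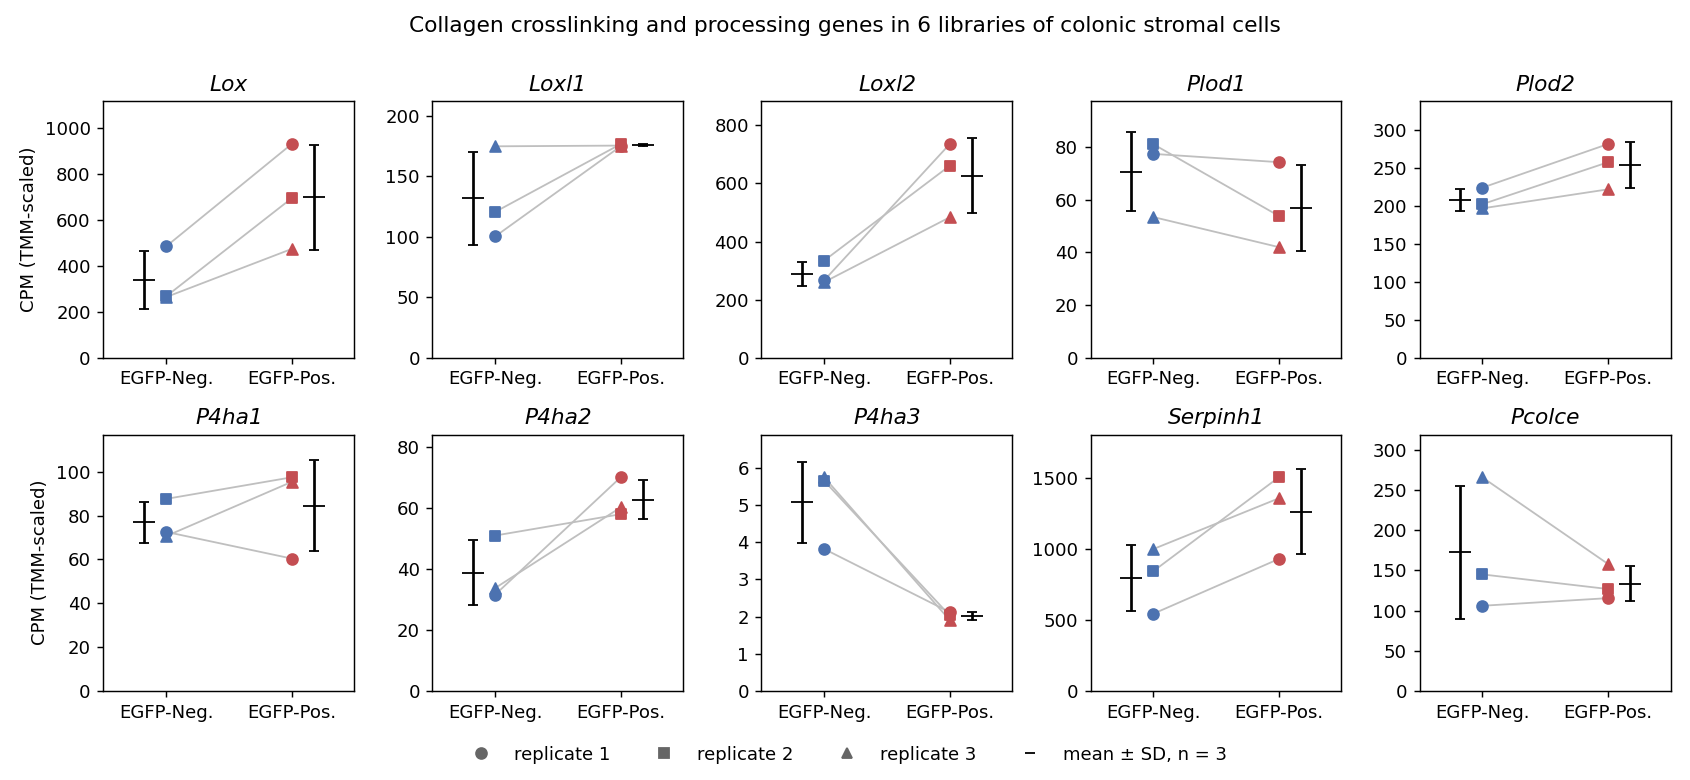
TMM-scaled CPM (vertical axes, each starting at 0) of the 10 genes in the 3 EGFP-Negative and 3 EGFP-Positive libraries. Symbols mark replicate numbers, grey lines join libraries with the same number, and black bars give the mean ± SD (n = 3). *Loxl2* rises along each line and its groups are apart, while the highest EGFP-Negative library of *Lox* (replicate 1) lies at the level of the lowest EGFP-Positive library (replicate 3).

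The cells in the gates differed in more than *Il11*, and the markers of other mesenchymal cells belong beside every value below. Of the 9 smooth muscle markers, 9 were called lower in EGFP-Positive cells, and their summed tags were 3038, 3836 and 5455 in EGFP-Negative libraries against 142, 266 and 427 in EGFP-Positive libraries. The most abundant was *Myh11*, smooth muscle myosin, with a log2 fold change of −4.55 ± 0.368 (SE; edgeR adjusted p = 1.11e-07). With single libraries left out, its log2 fold change ran from −5.63 to −4.21. Of the 9 pericyte markers, 8 were tested and 5 were called lower, among them the most abundant, *Rgs5* (log2 fold change −3.11 ± 0.180, edgeR adjusted p = 8e-09). The pericyte list summed to 2834, 2480 and 2603 tags against 1018, 890 and 844. *Kcnj8* and *Abcc9*, subunits of a potassium channel on the same list, went the other way, with log2 fold changes of 0.71 and 0.66 (edgeR adjusted p = 0.0394 and 0.0167, and up to 0.192 and 0.0831 over 14 alternatives).

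Markers of interstitial cells of Cajal were called lower for 3 of 3 genes, with *Ano1* the most abundant (the fold change of *Etv1* was under the threshold without EGFP-Negative library 1, at log2 −0.91), and summed to 284, 178 and 314 tags against 20, 20 and 53. The glial marker *Gfap* was called lower, with 22, 23 and 26 tags against 1, 0 and 1 (log2 fold change −4.76 ± 0.595 SE, edgeR adjusted p = 1.48e-05). *Sox10* and *S100b* had 2, 3 and 5 and 3, 9 and 4 tags in EGFP-Negative libraries, close to the floor. Both had 0 tags in each EGFP-Positive library, where a count of 0 allows up to 2.93 CPM, scaled by total tags without the TMM factors. Markers of endothelial, epithelial and immune cells, which the gate removes, left few tags. The endothelial list summed to 48, 30 and 55 tags against 19, 14 and 13, mostly from *Tek*, the 1 gene of the list that was tested and called lower, and *Pecam1*, which encodes the CD31 of the gate, had 1 tag in EGFP-Negative library 2 and 0 in the others. The call of *Tek* was lost without EGFP-Positive library 2 (edgeR adjusted p = 0.0529). Epithelial markers summed to at most 18 tags in a library, with *Krt8* the most abundant. Immune markers summed to at most 39 tags, with *Cd68* the most abundant. Mesothelial cells are not removed by this gate, and their markers, with *Wt1* the most abundant, summed to 16, 6 and 21 tags against 1, 0 and 2.

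Fibroblast markers were abundant in both gates. The 9 genes summed to 23169, 23464 and 30002 tags in EGFP-Negative libraries and 39841, 33445 and 31786 in EGFP-Positive libraries, and 2 of them, *Col3a1* and *Pdpn*, were called higher. By the adjusted p alone 4 were higher and 1 was lower. *Pdgfra*, a receptor typical of fibroblasts, had a log2 fold change of 0.22 ± 0.168 (SE; edgeR adjusted p = 0.449), and *Dcn*, the most abundant of the list, one of 0.67 ± 0.220 (edgeR adjusted p = 0.0462). *Thy1* had 0.88 ± 0.218 (SE; edgeR adjusted p = 0.00832, and up to 0.0638 over 14 alternatives, in 2 of which it was called). *Lum* passed the adjusted p alone in the other direction, at −0.64 ± 0.201 (SE; edgeR adjusted p = 0.0378, and up to 0.198 over 14 alternatives), and *Vim* had −0.27 ± 0.185 (SE; edgeR adjusted p = 0.384). *Pdpn* was under 2-fold when scaled by library size only and without EGFP-Negative library 1 or EGFP-Positive library 1, with log2 fold changes of 0.97, 0.96 and 0.96, and the adjusted p of *Dcn* ranged from 0.000372 to 0.227 over 14 alternatives. Markers of smooth muscle and interstitial cells and most pericyte markers thus took a larger share of the tags in EGFP-Negative libraries. In such bulk libraries fewer cells of a type and less RNA per cell cannot be told apart, and the part of these marker differences in the values of the crosslinking and processing genes was not tested.

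*Loxl2*, a lysyl oxidase that acts on collagens, among them collagen IV of basement membranes, had the smallest p of the 9 tested genes. It had 279, 355 and 317 tags in EGFP-Negative libraries and 694, 651 and 507 tags in EGFP-Positive libraries. Each EGFP-Positive library was thus above each EGFP-Negative library. The TMM-scaled level was 287 ± 41.2 CPM in EGFP-Negative and 627 ± 129 in EGFP-Positive cells (SD, n = 3), a 2.18-fold difference (log2 fold change 1.13 ± 0.186 SE, edgeR adjusted p = 0.000281). The gene lies at chr14:69609068-69695834 on the plus strand (GRCm38).

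*Loxl2* has an annotated copy, *Gm21451*, on the same chromosome (chr14:69390854-69480287, plus strand), listed as an unprocessed pseudogene. Of the 50-nt windows in the first 300 nt of annotated *Loxl2* transcripts, 68.6% also occur in *Gm21451*, and 100% of those of *Gm21451* occur in *Loxl2*. Tags of the pair could thus be exchanged, and the values of *Gm21451* are no separate measurement of that copy. *Gm21451* had 57, 70 and 69 tags in EGFP-Negative libraries and 130, 141 and 86 tags in EGFP-Positive libraries, a log2 fold change of 1.03 ± 0.213 (SE; edgeR adjusted p = 0.00211). It was called under 9 of its 14 alternatives, and its adjusted p was at most 0.0203. It made up between 14.5% and 17.9% of the summed tags of the pair in the 6 libraries. With its tags added to those of *Loxl2*, the log2 fold change of the sum was 1.11 (edgeR adjusted p = 0.000347). The sum was computed after the copy had been found in the annotation and its tags had been seen.

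*Lox*, the founding lysyl oxidase, which crosslinks fibrillar collagen and elastin, had 507, 283 and 321 tags in EGFP-Negative libraries and 877, 683 and 496 tags in EGFP-Positive libraries. EGFP-Negative library 1 was high and reached 484 TMM-scaled CPM, above the 473 of EGFP-Positive library 3, so that the groups overlapped. Libraries with the same replicate number nevertheless all differed in the same direction, with log2 ratios of 0.94, 1.38 and 0.84. The mean level was 338 ± 126 CPM in EGFP-Negative and 699 ± 228 in EGFP-Positive cells (SD, n = 3), a 2.07-fold difference (log2 fold change 1.05 ± 0.248 SE, edgeR adjusted p = 0.00614). This value lies just over the 2-fold threshold, and several settings moved it below. Scaled by library size only, the log2 fold change was 0.95. It was 0.91 without EGFP-Negative library 2 (edgeR adjusted p = 0.0577), 0.90 without EGFP-Negative library 3 (edgeR adjusted p = 0.0302) and 0.80 without EGFP-Positive library 1 (edgeR adjusted p = 0.0414). In the other direction, leaving out a single library raised the log2 fold change of *Lox* to at most 1.40. Over 14 alternatives its adjusted p ranged from 7.74e-08 in the fit blocked on replicate number to 0.0577. *Lox* lies at chr18:52516067-52529867 on the minus strand (GRCm38).

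*Loxl1*, the family member best known for elastic fibre assembly, was not called. It had 105, 128 and 213 tags in EGFP-Negative libraries against 165, 174 and 184 in EGFP-Positive libraries. EGFP-Negative library 3 was as high as the EGFP-Positive libraries, whose levels were nearly equal to each other. It lies at chr9:58287738-58313186 on the minus strand. The log2 fold change was 0.41 ± 0.192 (SE; edgeR adjusted p = 0.18). When replicate number was added to the fit as a block, the adjusted p was 0.0492 at a log2 fold change of 0.43, and without EGFP-Negative library 3 the log2 fold change was 0.67 (edgeR adjusted p = 0.0185). The number of *Lox* tags per *Loxl1* tag was 4.83, 2.21 and 1.51 in EGFP-Negative libraries and 5.32, 3.93 and 2.70 in EGFP-Positive libraries. This ratio varied as much within a group as between the groups. Within each replicate number it was higher in the EGFP-Positive library.

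The other lysyl oxidases had few tags. *Loxl3* had 14 to 35 tags in the 6 libraries (log2 fold change 0.087 ± 0.309 SE, edgeR adjusted p = 0.897), and the sign of this difference changed when single libraries were left out. *Loxl4* had 13, 6 and 13 tags against 12, 25 and 20 (log2 fold change 0.98 ± 0.392 SE, edgeR adjusted p = 0.105). Transglutaminase 2, encoded by *Tgm2*, crosslinks matrix proteins by another chemistry, through glutamine and lysine side chains. *Tgm2* had 224, 328 and 280 tags in EGFP-Negative libraries and 352, 457 and 547 in EGFP-Positive libraries, so that the groups were apart, and its log2 fold change of 0.85 ± 0.185 (SE; edgeR adjusted p = 0.00318) stayed under the 2-fold threshold except without EGFP-Negative library 2 (1.04). It was the 1 gene of the 4 tested on the list of other lysyl oxidases and transglutaminases with an adjusted p under 0.05, and the median log2 fold change of the list was 0.61.

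The lysyl hydroxylases of the endoplasmic reticulum were not called. *Plod1*, which hydroxylates lysines in the triple helix, had 81, 86 and 65 tags against 70, 53 and 44 (log2 fold change −0.32 ± 0.232 SE, edgeR adjusted p = 0.429). *Plod2*, which hydroxylates lysines of the telopeptides and so sets the chemistry of later crosslinks, had 235, 215 and 240 tags against 266, 254 and 233 (log2 fold change 0.29 ± 0.163 SE, edgeR adjusted p = 0.281). The groups overlapped for both genes. Within each replicate number *Plod1* was lower in the EGFP-Positive library (log2 ratios of −0.06, −0.59 and −0.35) and *Plod2* higher (0.33, 0.35 and 0.17). *Plod1* lies at chr4:147909753-147936767 on the minus strand and *Plod2* at chr9:92542223-92608428 on the plus strand. The number of *Plod2* tags per *Plod1* tag, given as a description with no test, was 2.90, 2.5 and 3.69 in EGFP-Negative libraries and 3.80, 4.79 and 5.30 in EGFP-Positive libraries. The lowest EGFP-Positive value was close to the highest EGFP-Negative value. *Plod3*, which also carries glycosyltransferase activity, had 33 to 56 tags in each library (log2 fold change 0.095 ± 0.248 SE, edgeR adjusted p = 0.858), and its sign also changed with single libraries. *Colgalt1*, which adds galactose to hydroxylysine, had a log2 fold change of 0.36 ± 0.201 (SE; edgeR adjusted p = 0.268).

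*Fkbp10*, whose product is a prolyl isomerase that assists PLOD2 in telopeptide hydroxylation, was called higher. It had 34, 36 and 56 tags in EGFP-Negative libraries and 87, 88 and 62 tags in EGFP-Positive libraries (log2 fold change 1.08 ± 0.229 SE, edgeR adjusted p = 0.00249). EGFP-Positive library 3 was the lowest of its group and was still above each EGFP-Negative library. The fold change fell just under the threshold with scaling by library size only, without EGFP-Negative library 1 and without EGFP-Positive library 1, where the log2 values were 0.99, 0.99 and 0.98.

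Prolyl 4-hydroxylase is built from catalytic alpha subunits, encoded by *P4ha1*, *P4ha2* and *P4ha3*, and from protein disulfide isomerase, encoded by *P4hb*. *P4ha1* had 76, 93 and 86 tags against 57, 96 and 100 (log2 fold change 0.14 ± 0.204 SE, edgeR adjusted p = 0.728). Its EGFP-Positive libraries held both the lowest and the highest level. *P4ha1* lies at chr10:59323296-59373304 and *P4ha2* at chr11:54100095-54131665, both on the plus strand. *P4ha2* had 33, 54 and 41 tags in EGFP-Negative libraries and 66, 57 and 63 tags in EGFP-Positive libraries. The groups were apart, with 38.7 ± 10.6 against 62.6 ± 6.43 TMM-scaled CPM (SD, n = 3), although EGFP-Negative library 2 was close to the EGFP-Positive libraries. The log2 fold change was 0.70 ± 0.228 (SE; edgeR adjusted p = 0.0458), which passed the adjusted p but not the 2-fold threshold.

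The adjusted p of *P4ha2* lay close to 0.05, and over 14 alternatives it ranged from 0.0166 in the fit blocked on replicate number to 0.167. It was over 0.05 with scaling by library size only, iterative TMM, DESeq2 and the filter of 10 tags in all libraries, and without any single library other than EGFP-Negative library 2. Without EGFP-Negative library 1, 3 or EGFP-Positive library 1, for example, the log2 fold changes were 0.57, 0.60 and 0.62. *P4ha2* tags per *P4ha1* tag were 0.434, 0.581 and 0.477 in EGFP-Negative libraries and 1.16, 0.594 and 0.630 in EGFP-Positive libraries. EGFP-Positive library 1, with the fewest *P4ha1* tags, stood far above the others in this ratio.

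*P4ha3* had 4, 6 and 7 tags in EGFP-Negative libraries and 2 tags in each EGFP-Positive library. At this depth 3 tags stand at 2.56 to 2.93 CPM when scaled by total tags, without the TMM factors. The ratio of its summed tags, 6 against 17, was 0.374 when scaled by total tags. Its exact 95% interval of 0.121 to 0.994 covers counting error only. The upper limit lies close to 1, and the TMM factors were not applied to this interval, so it does not settle a difference. With TMM scaling the mean levels were 5.07 CPM in EGFP-Negative and 2.02 CPM in EGFP-Positive libraries. Without the filter on low genes, the edgeR adjusted p of *P4ha3* was 0.465. The gene lies at chr7:100285520-100319699 on the plus strand, on the same chromosome as *Serpinh1*.

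*P4hb* had 271, 325 and 349 tags against 436, 520 and 468, with groups apart and a log2 fold change of 0.75 ± 0.162 (SE; edgeR adjusted p = 0.00288) under the 2-fold threshold. Prolyl 3-hydroxylation is a rarer modification, made by a complex of P3H1, CRTAP and cyclophilin B. *P3h1* had 23, 25 and 43 tags in EGFP-Negative libraries and 42, 56 and 65 in EGFP-Positive libraries. It was called higher at a log2 fold change of 1.0035 ± 0.251 (SE; edgeR adjusted p = 0.00916), at the very edge of the threshold. The fold change was under the threshold with scaling by library size only (log2 0.92), iterative TMM (0.99) and the filter of 10 tags in all libraries (0.96), and also without EGFP-Negative library 1 (0.88) or 2 (0.92) or EGFP-Positive library 2 (0.98) or 3 (0.90). The partners *Crtap* (log2 fold change 0.40 ± 0.198 SE, edgeR adjusted p = 0.207) and *Ppib* (0.19 ± 0.171 SE, edgeR adjusted p = 0.542) were not called.

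*P3h2*, whose product acts on collagen IV, went the other way. It had 31, 25 and 49 tags in EGFP-Negative libraries and 10, 16 and 9 tags in EGFP-Positive libraries, and was called lower (log2 fold change −1.40 ± 0.336 SE, edgeR adjusted p = 0.0067). *P4htm* was also called lower, with 19, 18 and 14 tags against 5, 5 and 6 (0.353-fold, edgeR adjusted p = 0.019). Its product is a transmembrane hydroxylase known for acting on hypoxia-inducible factor and not on collagen. The adjusted p of *P4htm* was over 0.05 in DESeq2 (0.0727) and without EGFP-Negative library 1 or 2 or EGFP-Positive library 1 or 2, where the edgeR adjusted p was 0.0805, 0.0698, 0.0545 and 0.0625. Of the 10 tested genes on the list of other collagen modifying enzymes, 1 was called higher and 2 were called lower, with a median log2 fold change of 0.25.

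*Serpinh1* encodes HSP47, the chaperone that binds procollagen in the endoplasmic reticulum. It had 569, 895 and 1217 tags in EGFP-Negative libraries and 877, 1482 and 1423 tags in EGFP-Positive libraries. Replicate 1 was the lowest in both groups, and EGFP-Positive library 1 lay below EGFP-Negative library 3, so that the groups overlapped. Within replicate numbers the EGFP-Positive library was higher each time, with log2 ratios of 0.77, 0.84 and 0.44. The mean levels were 795 ± 232 and 1264 ± 299 TMM-scaled CPM (SD, n = 3), a 1.59-fold difference (log2 fold change 0.67 ± 0.220 SE, edgeR adjusted p = 0.0466). Over 14 alternatives its adjusted p ranged from 0.000117 in the fit blocked on replicate number to 0.233 without EGFP-Negative library 1. It was also over 0.05 with scaling by library size only (0.0954), with iterative TMM (0.0512), with the filter of 10 tags in all libraries (0.06), and without EGFP-Negative library 2 (0.117) or EGFP-Positive library 2 (0.216) or 3 (0.0998). The gene lies at chr7:99345376-99353239 on the minus strand (GRCm38).

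On the list of procollagen chaperones and exporters, 2 of 15 tested genes were called higher, *Fkbp10* and *Creb3l1*, and the median log2 fold change was 0.32. *Creb3l1* encodes a membrane-bound transcription factor of the endoplasmic reticulum known to drive collagen genes. It had 40, 41 and 28 tags in EGFP-Negative libraries and 80, 81 and 52 tags in EGFP-Positive libraries (log2 fold change 1.12 ± 0.257 SE, edgeR adjusted p = 0.00487). Replicate 3 was the lowest in both groups. Its fold change was under the threshold without EGFP-Negative library 3 (log2 0.90) or EGFP-Positive library 1 (0.999).

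*Pcolce*, which encodes the enhancer that speeds the removal of the procollagen C-propeptide, was not called. It had 111, 154 and 324 tags in EGFP-Negative libraries and 109, 125 and 166 tags in EGFP-Positive libraries. EGFP-Negative library 3 was far above the other 5 libraries. The gene lies at chr5:137605103-137613784 on the minus strand. The log2 fold change was −0.37 ± 0.253 (SE; edgeR adjusted p = 0.387), and without EGFP-Negative library 3 it was 0.091 (edgeR adjusted p = 0.833), so that this library decided its sign. Of the 50-nt windows at the start of *Pcolce* transcripts, 4.23% also occur in transcripts of its neighbour *Fbxo24*.

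The paralog *Pcolce2* differed strongly. It had 61, 69 and 88 tags in EGFP-Negative libraries and 9, 8 and 12 tags in EGFP-Positive libraries, and was called lower (log2 fold change −2.73 ± 0.271 SE, edgeR adjusted p = 1.03e-06). The proteinases that act beside these enhancers were not called. *Bmp1*, the C-proteinase that also activates pro-LOX, had a log2 fold change of 0.17 ± 0.182 (SE; edgeR adjusted p = 0.604), and the N-proteinase gene *Adamts2* one of −0.26 ± 0.171 (edgeR adjusted p = 0.377). *Pcolce2* was thus the 1 called gene of the 4 tested on the list of procollagen proteinases and enhancers.

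**Figure D2:**
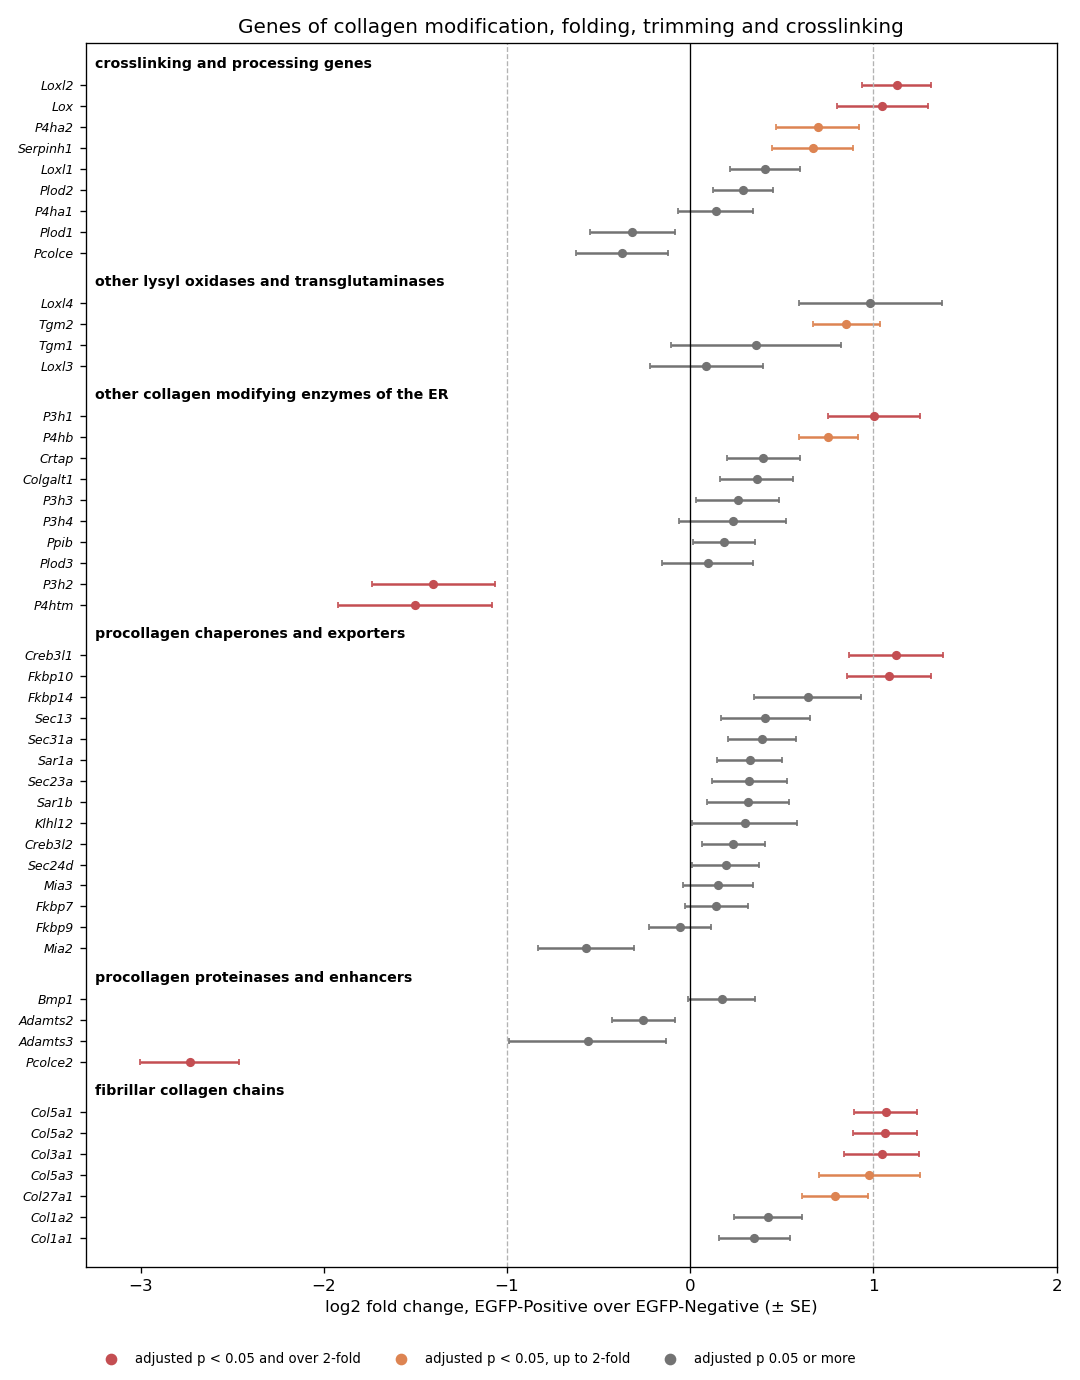
Log2 fold change of EGFP-Positive over EGFP-Negative cells (horizontal axis, ± SE) for the tested genes of 6 lists, ordered within each list. Dashed lines mark a 2-fold difference, red marks genes past both thresholds and orange those past the adjusted p alone. *Loxl2*, *Lox*, *P3h1*, *Creb3l1*, *Fkbp10* and 3 fibrillar chains lie to the right, and *P3h2*, *P4htm* and *Pcolce2* lie to the left.

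The substrates of these enzymes were higher in part. Of the 7 tested fibrillar collagen chains, 3 were called higher. *Col3a1* had 3284, 4717 and 6729 tags in EGFP-Negative libraries and 8619, 9045 and 9130 tags in EGFP-Positive libraries (log2 fold change 1.04 ± 0.204 SE, edgeR adjusted p = 0.00134). *Col5a1* and *Col5a2*, chains of the collagen V that regulates fibril diameter, had log2 fold changes of 1.07 ± 0.173 and 1.06 ± 0.173 (SE; edgeR adjusted p = 0.00024 and 0.000245). *Col5a3* (0.98) and *Col27a1* (0.79) passed the adjusted p alone (edgeR adjusted p = 0.0193 and 0.00482). *Col5a3* was low in EGFP-Positive library 3 with 84 tags, and without that library its log2 fold change was 1.33, while its adjusted p reached 0.132 in other alternatives. The median log2 fold change of the list was 0.98. The chains of collagen I, the main fibrillar collagen, were not called, with 0.35 ± 0.192 for *Col1a1* and 0.42 ± 0.184 for *Col1a2* (SE; edgeR adjusted p = 0.263 and 0.14). When replicate number was added to the fit as a block, the adjusted p of *Col1a2* was 0.0128. The called fibrillar chains were close to the threshold. Scaled by library size only, *Col3a1*, *Col5a1* and *Col5a2* had log2 fold changes of 0.96, 0.98 and 0.97. Without EGFP-Negative library 1, *Col3a1* had 0.85 and *Col5a1* 0.98, without EGFP-Positive library 2 *Col5a1* had 0.94, and without EGFP-Positive library 1 *Col5a2* had 0.96. The adjusted p of these 3 genes was at most 0.0184 over 14 alternatives.

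The crosslinking and processing genes were also set against their fibrillar substrates, and the direction turned with the chains chosen. Their summed tags were 2000, 2269 and 2831 in EGFP-Negative libraries and 3183, 3577 and 3218 in EGFP-Positive libraries, with *Serpinh1* the largest contributor. Per 100 tags of *Col1a1*, *Col1a2* and *Col3a1* together, the 10 genes had 34.8, 28.1 and 26.1 tags in EGFP-Negative libraries (29.7 ± 4.56, SD, n = 3) and 26.9, 26.9 and 24.0 tags in EGFP-Positive libraries (25.9 ± 1.66). EGFP-Negative library 1 was above the rest, and within each replicate number the EGFP-Positive library was lower. The called *Col3a1* makes up much of this sum. Per 100 tags of *Col1a1* and *Col1a2* alone, the 10 genes had 81.3, 67.7 and 68.8 tags in EGFP-Negative libraries and 99.0, 83.8 and 75.3 tags in EGFP-Positive libraries, higher within each replicate number. This second ratio was added after the first had been seen. These ratios are a description and were not tested.

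Among the other collagen chains, 5 of 18 tested genes were called higher and 5 were called lower, with a median log2 fold change of −0.06. The basement membrane chains *Col4a1* and *Col4a2* were 2.27-fold and 2.23-fold higher (edgeR adjusted p = 0.0013 and 0.000476), although without EGFP-Positive library 1 their log2 fold changes were 0.95 and 0.98. *Col18a1*, another basement membrane collagen, had 395, 341 and 254 tags against 1366, 1346 and 784 (log2 fold change 1.97 ± 0.246 SE, edgeR adjusted p = 1.45e-05). *Col12a1*, a fibril-associated collagen, had 203, 239 and 210 tags against 1862, 1465 and 988 (log2 fold change 2.90 ± 0.236 SE, edgeR adjusted p = 1.16e-07). *Col7a1*, the anchoring fibril collagen, had 3, 2 and 1 tags against 11, 16 and 10. The ratio of its summed tags, scaled by total tags without the TMM factors, was 6.54 with an exact 95% interval of 2.73 to 18.9.

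*Col14a1*, which like *Col12a1* encodes a fibril-associated collagen, differed in the opposite direction, with 409, 517 and 638 tags in EGFP-Negative libraries and 56, 111 and 168 tags in EGFP-Positive libraries (log2 fold change −2.07 ± 0.251 SE, edgeR adjusted p = 1.11e-05). *Col6a5* was also called lower (−1.95 ± 0.367 SE, edgeR adjusted p = 0.000958). The other genes called lower were *Col6a4* (−1.10), *Col20a1* (−1.59) and *Col23a1* (−1.62), each with an edgeR adjusted p between 0.0116 and 0.0324. Their calls were lost in part of the alternatives, where the adjusted p reached 0.103, 0.13 and 0.0972. This was so for *Col6a4* and *Col20a1* in DESeq2, and for *Col6a4* without EGFP-Negative library 1 or 2 or EGFP-Positive library 1 or 3, for *Col20a1* without any single library other than EGFP-Positive library 3, and for *Col23a1* without EGFP-Negative library 3 or EGFP-Positive library 1. The log2 fold change of *Col20a1* ran from −2.26 to −1.13 with single libraries left out.

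Elastic fibres are the other substrate of lysyl oxidases. *Eln*, which encodes elastin, had 233, 291 and 364 tags in EGFP-Negative libraries and 323, 476 and 545 in EGFP-Positive libraries, with a log2 fold change of 0.76 ± 0.186 (SE; edgeR adjusted p = 0.00816) that stayed under the 2-fold threshold. Without EGFP-Negative library 1 its adjusted p was 0.0551. *Emilin1*, whose product sits at the interface of elastin and microfibrils, had a log2 fold change of 0.73 ± 0.184 (SE; edgeR adjusted p = 0.00953), with an adjusted p of 0.055 without EGFP-Negative library 1 and 0.0594 without EGFP-Positive library 2. The microfibril genes *Mfap5* and *Ltbp1* were called lower. *Mfap5* had 138, 179 and 216 tags against 29, 33 and 51 (log2 fold change −2.07 ± 0.209 SE, edgeR adjusted p = 1.25e-06). *Ltbp1*, which tethers latent TGF-β to the matrix, had 164, 143 and 162 tags against 65, 42 and 74 (−1.22 ± 0.199 SE, edgeR adjusted p = 0.00025). *Ltbp4* (−0.85) and *Fbln1* (−0.71) passed the adjusted p alone (edgeR adjusted p = 0.011 and 0.0171). *Ltbp4* passed 2-fold without EGFP-Positive library 3, at −1.23, and its adjusted p was over 0.05 without EGFP-Positive library 1 (0.0638) or 2 (0.0852). That of *Fbln1* was over 0.05, at up to 0.0892, in 4 of the 6 fits with a library left out. *Fbn1*, the main microfibril gene, had −0.17 ± 0.165 (SE; edgeR adjusted p = 0.561). Of the 15 tested genes of the list, 2 were called lower, and the median log2 fold change was −0.32.

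Lysyl oxidases need copper. Of the 6 tested genes of copper delivery, 3 had an adjusted p under 0.05, and each of these was higher. The others were *Atp7a*, *Slc31a2* and *Ccs*, with log2 fold changes of −0.15, −0.49 and 0.08 (edgeR adjusted p = 0.776, 0.396 and 0.89). *Slc31a1*, the copper importer, had 33, 24 and 40 tags against 50, 60 and 59 (log2 fold change 0.96 ± 0.230 SE, edgeR adjusted p = 0.00669). *Atox1*, which hands copper to the pumps of the secretory pathway, had 57, 61 and 59 tags against 110, 95 and 84 (0.87 ± 0.195 SE, edgeR adjusted p = 0.00415). *Cox17*, the 1 called gene of the list, had 16, 22 and 10 tags against 36, 29 and 32 (1.16 ± 0.326 SE, edgeR adjusted p = 0.0196), and it serves mitochondrial cytochrome oxidase, not the lysyl oxidases. Its call was lost without EGFP-Negative library 3 (log2 0.85, edgeR adjusted p = 0.0902) and without EGFP-Positive library 1 (1.05, edgeR adjusted p = 0.0744). *Slc31a1* passed 2-fold without the filter on low genes and without EGFP-Negative library 1 or 3 or EGFP-Positive library 1, at log2 fold changes of 1.003, 1.02, 1.07 and 1.01.

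*P4ha1*, *P4ha2*, *Plod2* and *Lox* are known targets of hypoxia-inducible factors, so a list of hypoxia response genes was read beside them. Of its 19 tested genes, 3 were called higher, 7 had an adjusted p under 0.05 and were higher, and the median log2 fold change was 0.47. *Hif1a* itself had 122, 178 and 188 tags in EGFP-Negative libraries and 384, 340 and 287 tags in EGFP-Positive libraries (log2 fold change 1.22 ± 0.190 SE, edgeR adjusted p = 0.00015). The glycolytic genes *Gapdh* and *Pgk1* had 1.36 ± 0.232 and 1.09 ± 0.199 (SE; edgeR adjusted p = 0.000387 and 0.000705). EGFP-Positive library 1 was the highest for both, and without it their log2 fold changes were 0.97 and 0.86. *Pgk1* was also under 2-fold without EGFP-Negative library 1 (0.98) and, just so, when scaled by library size only (0.996). *Slc2a1* (0.81), *Ndrg1* (0.60), *Adm* (0.87) and *Epas1* (0.94) passed the adjusted p alone (edgeR adjusted p = 0.00519, 0.019, 0.016 and 0.026). Of these, *Slc2a1* kept an adjusted p under 0.05 in each of its 14 alternatives. *Epas1* was low in EGFP-Positive library 3 and had 1.28 without it, but its adjusted p was over 0.05 in DESeq2 (0.23) and without any other single library, where it reached 0.173. *Adm* had 1.01 without EGFP-Negative library 3 or EGFP-Positive library 2 or 3, and 0.69 and 0.55 without EGFP-Negative library 2 or EGFP-Positive library 1 (edgeR adjusted p = 0.106 and 0.126). The adjusted p of *Ndrg1* was over 0.05, at up to 0.0778, in 3 of the 6 fits with a library left out. *Pfkl*, *Aldoa*, *Ldha*, *Pdk1*, *Egln3* and *Ero1l* had log2 fold changes from 0.09 to 0.38, with an edgeR adjusted p of 0.156 or more. *Pfkfb3* and *Egln1* had the opposite sign, at −0.30 and −0.24 (edgeR adjusted p = 0.543 and 0.58). The adjusted p of *Pfkfb3* was as low as 0.0456 with a library left out. *Bnip3* also had the opposite sign, at −0.75 (edgeR adjusted p = 0.244), with values from −0.33 to −1.37 when single libraries were left out. It was called lower without EGFP-Negative library 3 (edgeR adjusted p = 0.0239) or EGFP-Positive library 1 (0.0411). With replicate number as a block its adjusted p was 0.0181, and *Hk2*, *Eno1* and *Vegfa* also passed, in the higher direction (0.0163, 0.016 and 0.0303).

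Promoter sequences from RefSeq (GRCm38.p6) matched 6 of the 10 genes, *Plod1*, *P4ha1*, *P4ha2*, *P4ha3*, *Serpinh1* and *Pcolce*; *Lox*, *Loxl1*, *Loxl2* and *Plod2* were not matched. The 250 bases ahead of each RefSeq start were searched on both strands for the letters ACGTG and GCGTG, the cores of hypoxia response elements, GAANNTTC, a pair of heat shock units, TTCNNNGAA, a STAT site, and TGANTCA, an AP-1 site. ACGTG was found in *P4ha1*, *P4ha2* and *Serpinh1*, and occurs in 16.6% of 27025 promoters of the same length. GCGTG was found in *Plod1*, *P4ha1*, *P4ha2* and *Pcolce*, and occurs in 28.2%. GAANNTTC, TTCNNNGAA and TGANTCA, which occur in 6.78%, 7.18% and 6.87% of promoters, were found in 0 of the 6. *P4ha2* and *Serpinh1*, which passed the adjusted p together, and *P4ha1*, the paralog that did not, are shown with both cores in capitals on either strand. The windows are chr11:54100674-54100923 (plus strand) for *P4ha2*, chr10:59323046-59323295 (plus strand) for *P4ha1* and chr7:99353240-99353489 (minus strand) for *Serpinh1*, and none of them overlaps an annotated exon. That of *P4ha2* lies inside the gene as annotated by GENCODE, past its first start, and the *Pcolce* window, not shown, overlaps an exon of *Pcolce*. A match describes letters only.
P4ha2: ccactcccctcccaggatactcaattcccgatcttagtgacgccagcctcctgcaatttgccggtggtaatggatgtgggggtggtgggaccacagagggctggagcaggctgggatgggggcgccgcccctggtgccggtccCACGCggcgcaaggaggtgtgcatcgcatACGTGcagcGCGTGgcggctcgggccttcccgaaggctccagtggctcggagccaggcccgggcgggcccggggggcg
P4ha1: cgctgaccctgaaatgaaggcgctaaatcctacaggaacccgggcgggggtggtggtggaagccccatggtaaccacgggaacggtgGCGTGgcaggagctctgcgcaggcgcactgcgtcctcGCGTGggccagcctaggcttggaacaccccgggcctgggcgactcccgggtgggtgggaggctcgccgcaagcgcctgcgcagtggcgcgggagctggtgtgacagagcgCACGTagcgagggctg
Serpinh1: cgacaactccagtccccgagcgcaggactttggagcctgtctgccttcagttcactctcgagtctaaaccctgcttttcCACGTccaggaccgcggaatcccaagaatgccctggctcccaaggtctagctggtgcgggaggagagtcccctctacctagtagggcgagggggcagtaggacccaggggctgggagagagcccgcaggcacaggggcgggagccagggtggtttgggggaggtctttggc

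The genes whose pattern over the 6 libraries was most like that of *Loxl2* were sought among 5062 others with a mean of at least 30 tags. *Il13ra1*, a receptor chain for IL-13, came first (Pearson r = 0.996 of TMM-scaled log2 CPM), followed by *S100a6* (0.995), *Nme1* (0.994), *LOC108167643* (0.994) and *Tnfsf11* (0.993), which encodes RANKL. These correlations describe 6 libraries that fall into 2 sorted groups, so that a difference between the groups alone gives a high r. The log2 fold changes of these genes ran from 0.63 for *S100a6* to 3.49 for *Tnfsf11*, against 1.13 for *Loxl2*.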

How the data were processed

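RNA of sorted colonic stromal cells was sequenced by 5′Tag-seq on an Ion Torrent instrument. The authors used Cutadapt 1.18 for trimming and Bowtie2 2.2.5 for one-orientation mapping to RefSeq RNA (mm10), and deposited raw tag counts per gene symbol, and the submitters' processing notes also name R 3.5.1. How tags that match several genes were counted is not given in the sources used here, nor are molecular identifiers, so intervals and floors cover counting error only. The methods name 3 mice. As printed, they exclude genes with 10 or more tags, which was read here as keeping them.

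Genes were kept when 3 or more libraries had 10 or more tags, and were tested in R 4.3.3 with edgeR 4.0.16 (TMM, glmQLFit, glmQLFTest, Benjamini-Hochberg over 9334 genes). Standard errors come from the log2 fold change and its F statistic. The fit was tested on simulated data with known changes, and the outcome of that test is not given here. Replicate numbers are from the sample titles. Libraries with the same number deviated together from their group means (r = 0.23, 0.19 and 0.27 over 5063 genes). The numbers were thus taken to pair the samples, and a fit with the number as a block was run beside the unpaired fit. Values of single fits are from the unpaired fit unless the block is named. The fits with a library left out were also unpaired, and the partner library with the same number stayed in. Alternatives were the fit with the replicate block, RLE, library size only, iterative TMM, DESeq2 1.42.0 and other filters. They also included the adjusted p alone, glmTreat at 1.5-fold, and each library left out in turn. Ranges of single genes are over all these alternatives, the block among them, without the adjusted p alone and glmTreat.

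Named genes are the 10 genes, *Il11*, called genes of the lists other than markers, a part of the markers, and the 5 genes most correlated with *Loxl2*. Other genes named, such as those past the adjusted p alone, *Gm21451*, *Bmp1* and *Loxl3*, were chosen after their values were seen. The genes and lists were chosen with earlier results of these data known. Positions and shared 50-nt windows come from GENCODE mouse release 21 (GRCm38). *Tgm5*, *Tgm6*, *Mep1a*, *Mep1b*, *Col2a1*, *Col10a1*, *Cdh5* and *Cdh1* were not analysed here, and 1 item is not reported here.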

Additional observations from a re-analysis of the deposited data

How the results depend on the processing

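*Loxl2* was called higher under each of its 14 alternatives, with log2 fold changes from 1.004 to 1.28, and *Lox* under 10 of 14. The number of crosslinking and processing genes called higher was 1 when scaled by library size only and 1 with glmTreat, *Loxl2* both times, 4 by the adjusted p alone, and 1 to 2 with single libraries left out. None of these genes was called lower in any alternative. Across all genes, 256 were called higher when scaled by library size only and 214 with glmTreat. By the adjusted p alone 638 were higher, and with single libraries left out 267 to 329 were called higher. With the filter of 10 tags in all libraries, where fewer genes are tested, 220 were called higher and 256 lower. With glmTreat, which is a stricter test, 378 were lower. With the replicate block, 337 genes were called higher, 648 lower, and 2 and 0 of the crosslinking and processing genes; the block changed the call of 0 of 142 followed genes, which are the tested genes of the lists and of the text. It brought the adjusted p of 10 of them under 0.05, *Loxl1*, *Col1a2*, *Col15a1*, *Hk2*, *Eno1* and *Vegfa*, which were higher, and *Col8a1*, *Efemp1*, *Mfap4* and *Bnip3*, which were lower, and it brought none over 0.05. With single libraries left out, the sign changed for *Pcolce* (log2 fold change −0.62 to 0.091), *Plod3* (−0.11 to 0.24) and *Loxl3* (−0.094 to 0.38), and among the other genes of the lists for *Fkbp9* (−0.1621 to 0.0673), *Mia3* (−0.0402 to 0.335), *Col4a5* (−0.2322 to 0.1598), *Col8a1* (−1.2043 to 0.153), *Mfap4* (−0.9511 to 0.0405), *Atp7a* (−0.3981 to 0.127), *Ccs* (−0.1932 to 0.2561), *Pdk1* (−0.0527 to 0.2013) and *Egln3* (−0.257 to 0.3345). None of these genes was called in the main fit. In the case of *Pcolce* this was EGFP-Negative library 3, and the cause was not tested. Among 1965 values of the followed genes under alternatives, 59 lost a call and 22 gained one. At 1022851 to 1169817 tags in a library, genes under 10 tags, such as *P4ha3*, could not be resolved.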
